A study of Homo sapiens with 6 samples.

Results

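Antisense long noncoding RNAs (lncRNAs) named after the gene they face were examined in HT-1376 cells, an established human bladder carcinoma line. A gene was included when GENCODE release 44 listed it as a lncRNA, its symbol ended in AS and a number, and its counts summed over the 6 libraries reached 120. Of 63241 genes in the count table, 1815 were such named antisense lncRNAs, 831 of these had at least 1 count, and 152 reached the limit. The genes were thus selected on the summed counts of the antisense gene, so the high counts of the 152 genes are given as a description and not as a result. UCKL1-AS1 lay just inside the limit with 120 counts, and FGD5-AS1 lay just outside it with 111.

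The cells were wild type HT-1376 cells in both groups, transfected with a small interfering RNA against SHMT2 (siSHMT2, 3 libraries, labelled as SHMT2 knockdown) or with a control siRNA (siNC, 3 libraries), and collected 24 h after transfection. SHMT2 is the mitochondrial enzyme that converts serine to glycine and passes a 1-carbon unit to folate. A single line and a single siRNA against SHMT2 were sequenced, according to the study's methods. The deposited counts summed to 817748, 660559 and 890574 (siNC replicates 1 to 3) and to 533689, 818859 and 815061 (siSHMT2 replicates 1 to 3). The study's text calls the replicates biological, and the labels do not say whether they were separate cultures, so the p-values measure only the spread between these libraries.

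An antisense lncRNA is read from the DNA strand opposite to its sense gene. Some start close to the sense promoter and run away from it, and others cross the exons of the sense gene, where both transcripts contain complementary sequence. Such transcripts are known to act on the neighbouring gene in some cases, by effects on chromatin, on transcription or on the stability of the mRNA. Only a library that keeps strand, counted with the matching strand setting, separates both genes where exons overlap. The labels describe these libraries as chain specific, and the strand setting of the counting is not given in the sources used here. A strand-specific library counted with the opposite setting would assign the reads of an mRNA to a gene on the other strand. Only counts per gene were analysed here, so the strand of the reads behind an antisense count was not tested.

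The label of the cells and the knockdown were checked first. All 12 urothelial and epithelial marker genes on the list had counts, 23994 in total, led by the keratin KRT8 with 13773, although UPK2, a uroplakin of terminally differentiated urothelium, had 1 count. The fibroblast list had counts for 2 of 5 genes (69 counts, 62 of them COL1A2), the endothelial list for 2 of 4 (11 counts, 9 of them CDH5), and the leukocyte list for 2 of 5 (38 counts). PDGFRA, DCN, LUM, VWF, KDR, PTPRC, CD3E and LYZ were at 0 in all 6 libraries. The summed epithelial markers were 4264, 3347 and 5013 counts in siNC and 2966, 4223 and 4181 in siSHMT2. SHMT2 itself had 28, 15 and 20 counts in siNC against 9, 2 and 5 in siSHMT2. Every siSHMT2 library was below every siNC library, at 2.48 ± 2.19 FPKM against 7.75 ± 1.97 (SD, n = 3). The log2 fold change was -1.78 (SE 0.48, unadjusted p = 0.00056, adjusted p = 0.93 in edgeR's quasi-likelihood test). GAPDH, a glycolytic enzyme used as a reference, was at 555 ± 34.3 FPKM in siSHMT2 and 593 ± 47.3 in siNC. The marker, SHMT2 and GAPDH values take the strand of the deposited counts as given, which was not tested.

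The 152 antisense lncRNAs held 381716 counts. They made up 8.38%, 8.77% and 8.34% of the counts in the siNC libraries and 8.09%, 8.43% and 8.43% in the siSHMT2 libraries. The groups overlapped, with means of 8.50 ± 0.236% and 8.32 ± 0.196% (SD, n = 3). Of all counts on lncRNA genes, 31.9% lay on these 152 genes. The counts were uneven, with a median of 472 per gene and a range of 120 to 100834, and 43 genes had 1000 or more. TUBA1B-AS1 alone held 26.4% of them and was the third most counted gene of the whole table, and the first 5 genes held 55.9%. Among the 100 most counted genes of the table, 12 were named antisense lncRNAs.

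The antisense lncRNAs with the most counts faced genes of varied function. TUBA1B-AS1 (chromosome 12, 49127782 to 49188484, plus strand, GRCh38) spans TUBA1B, which encodes an alpha-tubulin, and shares 1571 exon bases with it. It had 18533, 15081 and 19705 counts in siNC and 11094, 17780 and 18641 in siSHMT2, while TUBA1B had 295, 196 and 327 against 166, 255 and 249. The antisense to sense ratio was therefore 62.8, 76.9 and 60.3 in siNC and 66.8, 69.7 and 74.9 in siSHMT2. The siSHMT2 ratios lay inside the range of the siNC ratios, and the lowest counts of both genes in siSHMT2 came from replicate 1, the library with the lowest total.

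ADIRF-AS1 (chromosome 10, 86965345 to 86971311, minus strand) lies head to head with ADIRF, a gene named as a regulatory factor of adipogenesis, and shares 677 exon bases with it. ADIRF-AS1 had 8075, 7463 and 9396 counts in siNC and 4895, 8491 and 8279 in siSHMT2, and ADIRF had 488, 484 and 666 against 380, 532 and 499. The ratio stayed between 12.9 and 16.6 in all 6 libraries, and the groups overlapped. PCBP1-AS1 (chromosome 2, 69960104 to 70103220, minus strand) spans PCBP1, the single-exon gene of a poly(rC)-binding protein. PCBP1-AS1 had 4594, 3782 and 5107 counts in siNC and 2838, 4676 and 4682 in siSHMT2, against 103, 84 and 126 and 75, 96 and 84 for PCBP1. PCBP1-AS1 was above PCBP1 in every library, by a ratio of 37.8 to 55.7.

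PXN-AS1 lies tail to tail with PXN, the gene of the focal adhesion adaptor paxillin, and shares 1769 exon bases with it. PXN-AS1 had 4018, 3474 and 4345 counts in siNC and 2621, 4046 and 4031 in siSHMT2, against 117, 75 and 132 and 79, 119 and 122 for PXN. Its ratio was 34.3, 46.3 and 32.9 in siNC and 33.2, 34.0 and 33.0 in siSHMT2, with the groups overlapping and siNC replicate 2 highest.

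CERS6-AS1, PRC1-AS1 and LIMD1-AS1 faced genes with few counts. CERS6-AS1 had 11152 counts in all, against 101 for CERS6, a ceramide synthase, and 69.6% of its exon bases lie opposite exons of CERS6. PRC1-AS1 lies inside PRC1, whose protein bundles microtubules at cytokinesis, and had 8583 counts against 70. LIMD1-AS1 had 8182 counts against 124 for LIMD1, which encodes a LIM domain protein, and 69.6% of its exon bases lie opposite exons of that gene. With 5 to 29 sense counts per library in these 3 pairs, the ratio of a single library was imprecise: it ran from 83.0 to 320 for CERS6-AS1, from 83.0 to 330 for PRC1-AS1 and from 53.2 to 112 for LIMD1-AS1.

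Across the 152 pairs, 133 (87.5%) had more antisense than sense counts, and 124 had more in every library. This direction takes the strand of the deposited counts as given, which was not tested, and so do the ratios of single pairs. Exchanging the counts within each pair would leave 19 pairs with more antisense counts. Exchanges here and below are arithmetic only and do not give the counts of another strand setting. Exon bases were shared in 137 of the 152 pairs, with a median of 19.7% of the lncRNA's exon bases. The sense genes had a median of 108 counts, and all but 1 are protein coding, the exception being CCDC144NL. Since genes were included by their antisense counts alone, the limit itself favours high ratios. In 135 pairs whose sense gene had at least 20 counts, the median ratio was 4.98 and the quartiles were 1.76 and 10.5, and 36 ratios exceeded 10. The median ratio in a library was 4.84, 5.51 and 4.24 in siNC and 4.82, 4.92 and 4.80 in siSHMT2, with both groups overlapping. Per listed gene length, on the FPKM scale, 137 of 150 pairs with a sense count had more antisense signal, with a median FPKM ratio of 8.28. For comparison, 588 of 976 lncRNA and protein-coding pairs of the whole table had the larger count on the lncRNA as deposited. These 976 were the pairs with at least 100 shared exon bases and at least 20 counts for each gene. With the counts exchanged within each pair, the lncRNA would have the smaller count in those 588. The FPKM values also take the strand as deposited.

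**Figure D1:**
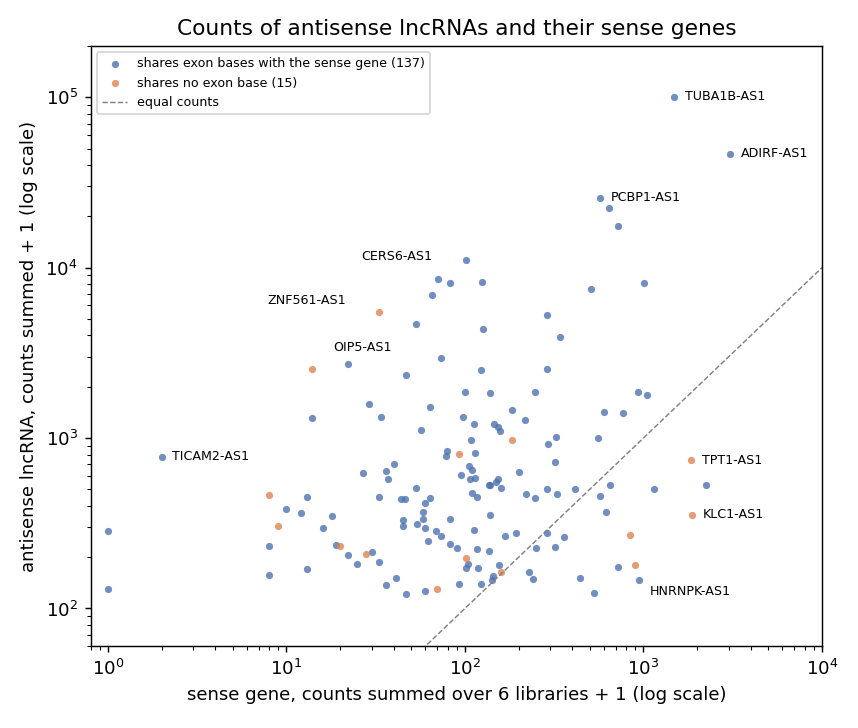
Summed counts of each antisense lncRNA (vertical axis, counts + 1, log scale) against its sense gene (horizontal axis, counts + 1, log scale), with 1 point for each of the 152 pairs blue where exon bases are shared and orange where none are, and the dashed line at equal counts. Of these pairs, 133 lie above the line, and TUBA1B-AS1, ADIRF-AS1 and PCBP1-AS1 have the most antisense counts.

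The highest ratio among pairs with at least 20 sense counts was that of ZNF561-AS1, at 172. ZNF561 encodes a zinc-finger protein and had 32 counts in all, against 5517 for its antisense gene. OIP5-AS1, a lncRNA also known as cyrano, had 2736 counts against 21 for OIP5, which encodes a centromere-associated protein, a ratio of 130. PRC1-AS1 was next at 123. At the other end, HNRNPK-AS1 had 20, 23 and 18 counts in siNC and 40, 23 and 21 in siSHMT2, while HNRNPK, the gene of an RNA-binding protein, had 173, 118 and 201 against 76, 162 and 207. Its ratio was 0.155 over all libraries and 0.526 in siSHMT2 replicate 1, with every other library at 0.195 or below. KLC1-AS1 had 354 counts against 1863 for the kinesin light chain gene KLC1 (ratio 0.190), and ITGA2-AS1 had 179 against 894 for the collagen receptor integrin gene ITGA2 (0.200).

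In 12 pairs the antisense gene had fewer counts than the sense gene in every library. Beside HNRNPK, KLC1 and ITGA2, their sense genes included DSG2 (a desmosomal cadherin), BCAR3 (a signalling adaptor at focal adhesions), PSMA3 (a proteasome subunit), TMPO (a protein of the nuclear lamina), TPT1 (the translationally controlled tumour protein), EPB41L4A (a member of the band 4.1 family), SPTBN1 (a beta-spectrin) and GATA2 (a zinc-finger transcription factor). Ratios of these pairs ran from 0.155 for HNRNPK-AS1 to 0.610 for GATA2-AS1.

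**Figure D2:**
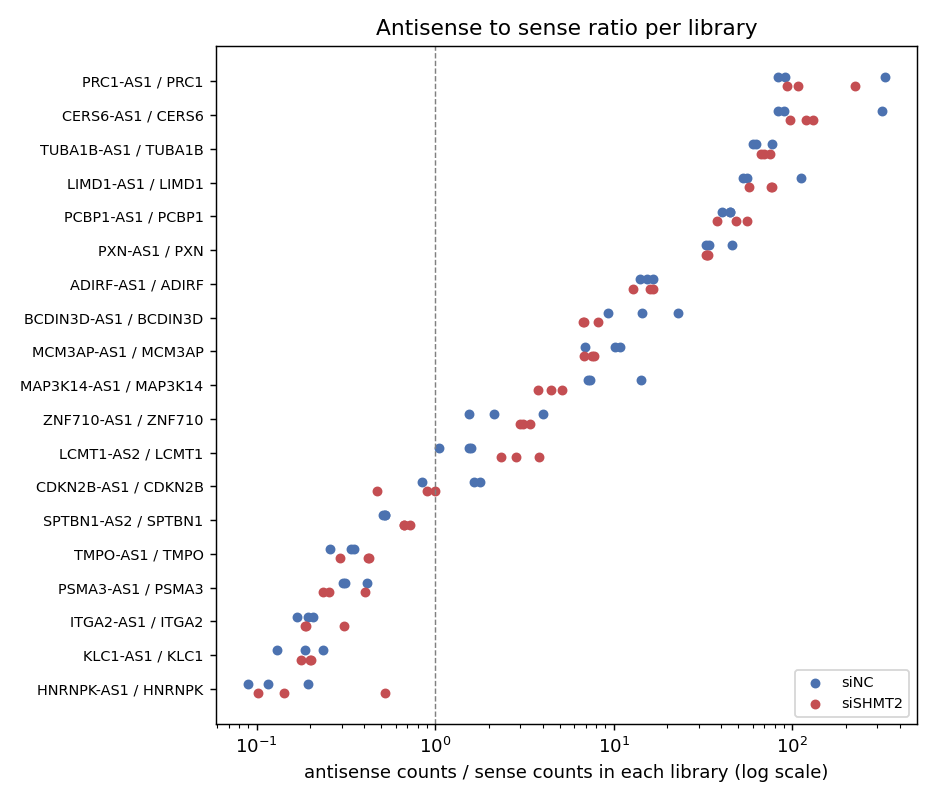
Antisense to sense count ratio in each library (horizontal axis, log scale) for 19 named pairs (rows), with 1 point for each siNC and siSHMT2 library and the dashed line at a ratio of 1. Pairs are ordered by their ratio over all libraries, from 0.155 for HNRNPK-AS1 to 123 for PRC1-AS1, and the points of CERS6-AS1 and PRC1-AS1 spread most among those with high ratios.

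The position of the antisense gene was taken from GENCODE. Exon bases were shared with the named sense gene by 137 of the 152 lncRNAs, with a median of 646 shared bases or 19.7% of the lncRNA's exon bases, and 15 shared none. Any protein-coding exon on the opposite strand was met by 146. At least 100 such bases were present in 141 of the 152 (92.8%), against 48.7% of the 1663 named antisense lncRNAs under the limit and 85.7% of the 664 lncRNAs of any name with 120 or more counts. The 6 without any opposite coding exon had these counts: KLC1-AS1 354, PSMA3-AS1 268, CCDC54-AS1 230, ZNF350-AS1 208, SLCO4A1-AS2 198 and LCMT1-AS2 129. Their median was 219 counts, and that of the 141 was 504 with a range of 120 to 100834. Counts chose these genes, with a floor of 120, and the medians are given as a description. Whether the opposite exons contributed reads to these counts was not tested.

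The symbol did not always name the gene with the largest exon overlap. In 31 of the 146, another protein-coding gene on the opposite strand shared more exon bases than the named one. GPAT4-AS1, named after a glycerol phosphate acyltransferase gene, had 8149 counts, shared 7 exon bases with GPAT4 and 1503 with GOLGA7, which encodes a Golgi protein and had 47 counts. RUSC1-AS1 had 6880 counts and shared 400 bases with RUSC1 and 693 with FDPS, the gene of farnesyl diphosphate synthase, with 440 counts. PITX1-AS1 (2524 counts) shared no exon base with the homeobox gene PITX1 and 4706 with MACROH2A1, which encodes a histone variant and had 641 counts. IDI2-AS1 (1874 counts) shared 643 bases with IDI1, an isomerase of the mevalonate pathway, and 93 with IDI2. Against the opposite coding gene with the largest overlap, the lncRNA had more counts in 128 of 146 cases as deposited, and would have more in 18 with the counts of both genes exchanged.

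The pairs fell into 5 arrangements. The genes met at their 3′ ends (tail to tail) in 52 pairs, overlapped at their 5′ ends (head to head) in 45, had the lncRNA inside the sense gene in 36 and had it spanning the sense gene in 16, and 3 did not overlap and started away from each other. The median ratios were 7.07, 4.77, 5.94, 7 and 5.34 in this order, and the ranges of the arrangements overlapped. Antisense counts were the larger in 45, 39, 31, 16 and 2 of these pairs as deposited. With the counts exchanged within each pair, sense counts would be the larger in these same pairs, and each ratio would be inverted. Tail to tail pairs shared a median of 889 exon bases and head to head pairs 271.

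**Figure D3:**
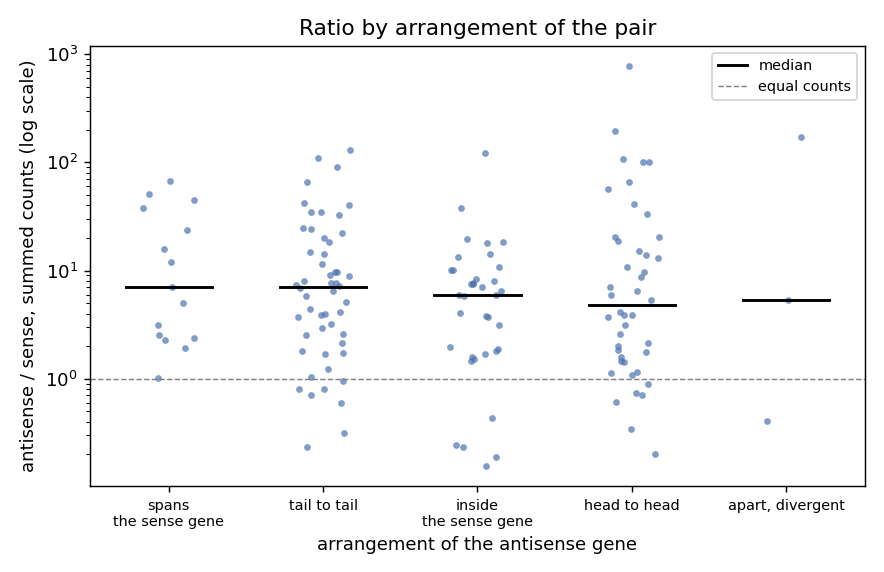
Antisense to sense ratio of summed counts (vertical axis, log scale) by arrangement of the pair (horizontal axis), with 1 point for each of the 150 pairs with a sense count, bars at the medians and the dashed line at a ratio of 1. Medians lie between 4.77 and 7.07, and each arrangement with more than 3 pairs spans at least 10-fold.

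In the 3 pairs that do not overlap, both genes start from a common short stretch of DNA, so the bases before each antisense start lie between the genes. The starts are separated by 12 bases for ZNF561-AS1 and ZNF561, by 60 for TPT1-AS1 and TPT1, and by 104 for DNAJC9-AS1 and DNAJC9. The bases just before each start are shown 5′ to 3′ on the plus strand of GRCh38, the strand of these lncRNAs, to show how short the stretch shared by both genes is; for ZNF561-AS1 the whole of it is printed, and for the others the last 30 bases.
ZNF561-AS1: cggtggtgcgct
TPT1-AS1: cgagtcggggaggtgagcatccggggactt
DNAJC9-AS1: ccgcgctttacggcggccgcaaaatgaggt
They lie at chr19:9621237-9621248, chr13:45341315-45341344 and chr10:73247330-73247359, and 75%, 66.7% and 63.3% of the bases are G or C. The ratios of these pairs stood far apart, at 172, 0.404 and 5.34. TPT1-AS1 had 136, 123 and 133 counts in siNC and 66, 135 and 150 in siSHMT2, below TPT1 in every library (323, 255 and 375 against 204, 303 and 378). ZNF561-AS1 shares exon bases with ZNF562, another zinc-finger gene on the opposite strand, which had 211 counts.

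By the role of the sense gene, 5 groups were set from the symbols. Their counts and ratios take the strand of the deposited counts as given, which was not tested. With the counts exchanged within each pair, the pairs with more antisense counts would have fewer, and each ratio would be inverted. Sense genes of the cytoskeleton and of adhesion (16 pairs, among them TUBA1B, PXN and ITGA2) had more antisense counts in 10 pairs, and a median ratio of 5.90. Genes of cell division and DNA maintenance (11 pairs, among them PRC1, KIF23 and XPC) had more in 10, with a median ratio of 4.15. Transcription factors and zinc-finger proteins (21 pairs, among them ELF3, IRF1, PITX1 and GATA2) had more in 20, with a median ratio of 7.58. Genes of metabolism and transport (19 pairs, among them SLC7A11 and GCLC) had more in 18, with a median ratio of 4.41, and genes of RNA processing and translation (13 pairs, among them PCBP1 and HNRNPK) in 10, with a median ratio of 4.14.

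In some pairs of these groups the sense gene is known for a role in epithelial cells or in redox metabolism, which was not tested here. ELF3-AS1 had 225, 194 and 213 counts in siNC and 157, 230 and 261 in siSHMT2, and ELF3, an epithelial ETS transcription factor, had 38, 31 and 47 against 19, 42 and 38. SLC7A11-AS1 had 310, 290 and 323 counts in siNC and 200, 371 and 373 in siSHMT2, and SLC7A11, the cystine transporter, had 39, 50 and 31 against 22, 32 and 71. The groups overlapped for all 4 genes. Of 16 antisense lncRNAs known from work on tumours, 6 reached the limit: OIP5-AS1 (2736 counts), MCM3AP-AS1 (1466), AFAP1-AS1 (381), PSMA3-AS1 (268), CDKN2B-AS1, also known as ANRIL (162), and TMPO-AS1 (150). FGD5-AS1 had 111 counts, GATA3-AS1 11, TTN-AS1 4 and MNX1-AS1 1, FOXD2-AS1, DLX6-AS1, LOXL1-AS1 and DSCAM-AS1 were at 0, and TP73-AS1 and MAFG-AS1 matched no symbol of the table.

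The siSHMT2 and siNC groups were then compared for both genes of each pair. All changes, calls and signs below take the strand of the deposited counts as given, which was not tested. With the opposite strand setting, a change listed for a gene could belong to a gene on the other strand. The test was fitted over the 7207 genes that passed the filter on low counts, which included all 152 antisense lncRNAs, as their limit makes likely, and 110 of the 151 sense genes. No antisense lncRNA had an adjusted p under 0.05 in edgeR's quasi-likelihood test (the smallest was 0.999), nor did any other gene (0 of 7207, 0%). At an unadjusted p under 0.05 there were 5 antisense lncRNAs (3.29%, against 3.84% of all tested genes), 4 of them higher in siSHMT2 (1.94% of all tested genes were). DESeq2 gave 2 of the 152 at this unadjusted p (1.62% of all tested genes), and limma gave 6 on log2(FPKM + 1) and 6 on log2(FPKM + 0.1) (4.37% and 4.29% of all tested genes), each with 0 at an adjusted p under 0.05. With a fold change over 1.5 in addition, 1 antisense lncRNA remained, POT1-AS1 (0.658%, against 2.68% of all tested genes). The log2 fold changes of the 152 had a median of 0.01 and a range of -0.45 to 0.74 with a median SE of 0.18, and 81 were above 0 (49.8% of all tested genes were). In bulk libraries, a lower count from fewer cells expressing a gene and one from less RNA per cell cannot be told apart.

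The groups did not overlap for 17 of the 152 antisense lncRNAs (11.2%, against 9.20% of all tested genes), of which 11 were higher in siSHMT2 and 6 lower. TICAM2-AS1 had the smallest p. It had 113, 90 and 134 counts in siNC and 105, 203 and 133 in siSHMT2, or 33.1 ± 1.8 against 47.4 ± 9.98 FPKM (SD, n = 3). All 3 siSHMT2 libraries were above siNC in FPKM, replicate 2 the most, with a log2 fold change of 0.52 (SE 0.16, unadjusted p = 0.0024, adjusted p = 0.999 in edgeR's quasi-likelihood test). Without siSHMT2 replicate 2 its log2 fold change was 0.32 (unadjusted p = 0.090 in edgeR). TICAM2, an adaptor of Toll-like receptor 4 signalling, had 1 count in all 6 libraries together.

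DNAJC9-AS1 had 132, 136 and 179 counts in siNC and 119, 210 and 196 in siSHMT2, or 66.1 ± 8.51 against 83.8 ± 5.85 FPKM (SD, n = 3). Its groups did not overlap in FPKM (log2 fold change 0.35, SE 0.15), and without siNC replicate 1 the log2 fold change was 0.24 (unadjusted p = 0.15 in edgeR). DNAJC9, a histone co-chaperone, had 34, 34 and 29 counts against 24, 22 and 39 and a log2 fold change of -0.07 (SE 0.29). SPTBN1-AS2 had 55, 42 and 67 counts in siNC and 54, 82 and 69 in siSHMT2, or 80.4 ± 6.97 against 112 ± 10.8 FPKM. Its log2 fold change was 0.47 (SE 0.20) beside 0.07 (SE 0.17) for SPTBN1, and all siSHMT2 libraries were above all siNC libraries in FPKM. The unadjusted p of SPTBN1-AS2 in edgeR was 0.061 without siNC replicate 1, 0.053 without siSHMT2 replicate 1 and 0.095 without siSHMT2 replicate 2. On all 6 libraries it was 0.0504 in DESeq2, and 0.0038 and 0.0033 in limma on log2(FPKM + 1) and log2(FPKM + 0.1).

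NAV2-AS1, whose 660 exon bases all lie opposite exons of NAV2, a gene of neurite outgrowth, was the only one of the 5 that was lower in siSHMT2. It had 195, 219 and 217 counts in siNC and 108, 175 and 184 in siSHMT2, or 411 ± 79.2 against 324 ± 17.7 FPKM, with siNC replicate 2 highest. Its log2 fold change was -0.33 (SE 0.15) and became -0.13 without siNC replicate 2 (unadjusted p = 0.38 in edgeR), and that of NAV2 was -0.12 (SE 0.30). On all 6 libraries the unadjusted p of NAV2-AS1 was 0.057 in DESeq2, and 0.033 and 0.032 in limma on log2(FPKM + 1) and log2(FPKM + 0.1). POT1-AS1 faces POT1, the shelterin protein that binds telomeric single-stranded DNA, and had 24, 16 and 13 counts in siNC and 13, 40 and 30 in siSHMT2. The groups overlapped in FPKM (6.99 ± 2.30 against 11.3 ± 3.77, SD, n = 3), and its log2 fold change of 0.74 (SE 0.34, unadjusted p = 0.032, adjusted p = 0.999 in edgeR's quasi-likelihood test) lost its call without siNC replicate 3 (0.47, unadjusted p = 0.20 in edgeR) or without siSHMT2 replicate 2 (0.46, unadjusted p = 0.25). On all 6 libraries its unadjusted p was 0.083 in DESeq2 and 0.098 and 0.10 in limma on log2(FPKM + 1) and log2(FPKM + 0.1), so the call was edgeR's alone. ZNF350-AS1, opposite a zinc-finger gene, had 33, 30 and 27 counts in siNC and 42, 39 and 37 in siSHMT2, or 8.48 ± 1.68 against 12.5 ± 4.08 FPKM (SD, n = 3). The groups overlapped in FPKM, siSHMT2 replicate 1 was highest, and its log2 fold change of 0.54 (SE 0.27) had an unadjusted p of 0.053 in edgeR and became 0.29 without siSHMT2 replicate 1.

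**Figure D4:**
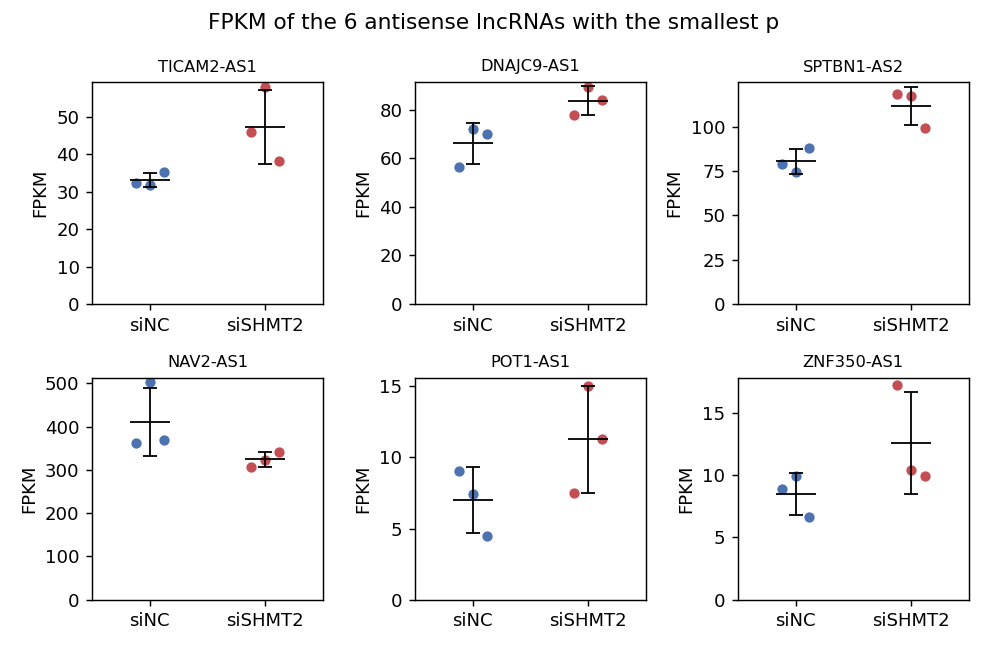
FPKM (vertical axis, from 0) in each library of siNC and siSHMT2 for the 6 antisense lncRNAs with the smallest unadjusted p, with 1 point for each library and bars for the mean and SD (n = 3). NAV2-AS1 is the only one lower in siSHMT2, and the points of POT1-AS1 and ZNF350-AS1 overlap between the groups.

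Among the 110 tested sense genes, 3 had an unadjusted p under 0.05 (2.73%, against 3.84% of all tested genes) and 0 an adjusted p under 0.05 in edgeR, beside 1 and 0 in DESeq2 and 2 and 0 in limma on log2 FPKM. With a fold change over 1.5, 2 remained (1.82%, against 2.68% of all tested genes). MAP3K14, the kinase NIK of noncanonical NF-kappaB signalling, had 4, 6 and 7 counts in siNC and 13, 12 and 11 in siSHMT2. All siSHMT2 libraries were above all siNC libraries (log2 fold change 1.22, SE 0.51), while MAP3K14-AS1 had 57, 44 and 50 counts against 49, 62 and 49 (0.23, SE 0.22) with overlapping groups. The log2 fold change of MAP3K14-AS1 ran from 0.097 to 0.39 with a library left out. ZNF710, a zinc-finger gene, had 13, 26 and 35 counts in siNC and 10, 12 and 16 in siSHMT2 (-0.83, SE 0.37), with siNC replicate 1 inside the siSHMT2 range. Without 1 library, the unadjusted p of edgeR was 0.079 (siNC replicate 1) or 0.099 (siSHMT2 replicate 1) for MAP3K14 and 0.14 (siNC replicate 2), 0.15 (siNC replicate 3) or 0.090 (siSHMT2 replicate 2) for ZNF710, which had 0.076 in DESeq2 on all 6 libraries. ZNF710-AS1 had 52, 40 and 75 counts against 31, 41 and 48, and a log2 fold change of -0.33 (SE 0.23), which ran from -0.40 to -0.18 with a library left out. Groups did not overlap for 8 of the 110 sense genes (7.27%, against 9.20%), PXN, AP1G2, ZBTB47, RNF213, MAP3K14 and CDKN2B being higher in siSHMT2 and NUP153 and CACTIN lower.

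Both genes were tested in 111 pairs, and their log2 fold changes had the same sign in 53 (47.7%). Both were higher in siSHMT2 in 26 pairs and both lower in 27, the antisense gene was higher and the sense gene lower in 34, and the reverse held in 24. Of the 976 lncRNA and protein-coding pairs described above, both genes were tested in 587, and 293 of these (49.9%) had the same sign. Across the 111 pairs Pearson's r of the changes was 0.17 and Spearman's rho 0.07, as a description of genes measured in the same 6 libraries. No pair had an unadjusted p under 0.05 for both genes, and in 1 pair the changes differed by more than 2 SE. Among the 35 pairs with 1000 or more antisense counts, 21 had the same sign, and among pairs that shared no exon base 5 of 9. Taken against the opposite coding gene with the largest overlap, 58 of 111 had the same sign.

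The counts by arrangement were 18 of 39 tail to tail pairs, 17 of 32 head to head pairs, 12 of 28 with the lncRNA inside and 6 of 10 with it spanning the sense gene, and 0 of 2 that did not overlap. By role of the sense gene, the signs were the same in 7 of 13 pairs of the cytoskeleton and adhesion, 3 of 8 of cell division and DNA maintenance, 6 of 13 of transcription factors, 7 of 14 of metabolism and transport and 6 of 10 of RNA processing and translation. Median log2 fold changes of the antisense genes in these groups lay between -0.03 and 0.05. CDKN2B-AS1 and CDKN2B, an inhibitor of the cyclin-dependent kinases of G1, gave opposite signs. CDKN2B-AS1 had 21, 33 and 41 counts in siNC and 19, 19 and 29 in siSHMT2, and CDKN2B had 25, 20 and 23 against 19, 40 and 32. The log2 fold changes were -0.37 (SE 0.31) and 0.54 (SE 0.29), and neither had an unadjusted p under 0.05. With a library left out they ran from -0.62 to -0.17 for CDKN2B-AS1 and from 0.37 to 0.62 for CDKN2B.

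**Figure D5:**
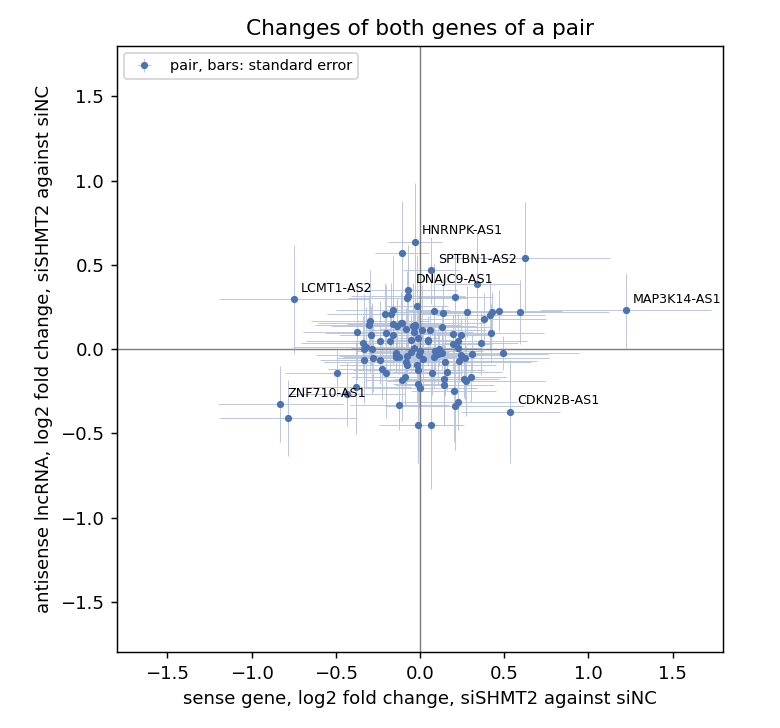
Log2 fold change of siSHMT2 against siNC for the sense gene (horizontal axis) and the antisense lncRNA (vertical axis) of the 111 pairs with both genes tested, with 1 point for each pair and bars for the standard errors. The points scatter around 0 on both axes, 53 of them in the quadrants of equal sign, and MAP3K14 and ZNF710 lie farthest out on the horizontal axis.

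The antisense to sense ratio was compared in the 135 pairs with at least 20 sense counts, after adding 0.5 to each count and taking log2. The ratio was higher in siSHMT2 in 68 pairs and lower in 67, with a median difference of 0.00 on the log2 scale and a median SE of 0.36. The groups did not overlap in 6 pairs (4.44%, against 7.99% of the 976 overlapping lncRNA and protein-coding pairs). With 3 libraries against 3, the two-sided exact permutation test cannot give a p below 0.1, which was reached by each of the 6.

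Among these 6 pairs LCMT1-AS2 had the largest difference, with ratios of 1.59, 1.56 and 1.05 in siNC and 2.83, 3.83 and 2.33 in siSHMT2. It had 27, 14 and 20 counts against 17, 23 and 28, and LCMT1, a methyltransferase that acts on protein phosphatase 2A, had 17, 9 and 19 against 6, 6 and 12. The log2 ratio was higher in siSHMT2 by 1.05 (SE 0.27). For MAP3K14-AS1 the ratio was 14.2, 7.33 and 7.14 in siNC and 3.77, 5.17 and 4.45 in siSHMT2, lower in all siSHMT2 libraries (log2 difference -0.97, SE 0.33). For BCDIN3D-AS1, which faces the gene of an RNA methyltransferase, it was 14.5, 23.0 and 9.30 against 6.8, 8.22 and 6.75 (-0.96, SE 0.35), with 3 to 12 counts of BCDIN3D in a library.

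SPTBN1-AS2 had the tightest ratios of the 6, at 0.524, 0.525 and 0.511 in siNC and 0.667, 0.672 and 0.726 in siSHMT2 (log2 difference 0.40, SE 0.04). That SE measures only the spread of 3 ratios per group, in a pair listed because its groups did not overlap. In edgeR the changes of SPTBN1-AS2 and SPTBN1 differed by 1.54 times their combined SE. ZFHX3-AS1, opposite a homeobox transcription factor gene, had ratios of 1.04, 1.06 and 1.18 against 1.53, 1.38 and 1.33, and SGO1-AS1, opposite the gene of the cohesin protector shugoshin, 4.00, 3.25 and 2.27 against 6.33, 4.43 and 5.25. In the most counted pairs the groups overlapped, with log2 differences of 0.09 (SE 0.12) for TUBA1B-AS1, -0.03 (SE 0.13) for ADIRF-AS1 and 0.11 (SE 0.17) for PCBP1-AS1.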

How the data were processed

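The authors deposited raw gene counts and FPKM values for the 6 libraries, prepared with a chain-specific kit after mRNA capture. The submitters' processing notes name FastQC 0.11.9, fastp 0.23.4, HISAT2 2.2.1, DESeq2 1.42.1 and GRCh38. How reads were counted, with which strand setting and on which annotation release, is not given in the sources used here. The deposited FPKM values equalled the count divided by the listed gene length and the summed counts of the library. Deposited counts per library were 533689 to 890574, which limits the precision of genes with few counts, as the SEs show. The study's text reports far more sequenced reads per sample than these counts. The gap between reads and counts was not examined, so the totals are not the sequencing depth. The members and gene lists were chosen with earlier results of these data known.

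Gene types, strands and exons came from GENCODE 44 by gene ID. The sense gene was found by the symbol before the suffix, taking a protein-coding gene first where a symbol had more than 1 gene. Ratios used counts as deposited, and log2 ratios a pseudocount of 0.5. Counts were tested in R 4.3.3 with edgeR 4.0.16 (TMM, filterByExpr, quasi-likelihood, two-sided, Benjamini-Hochberg adjustment over 7207 genes). SE is the log2 fold change divided by the square root of F. "Groups did not overlap" for single genes used log2 CPM. DESeq2 1.42.0, limma 3.58.1 on log2(FPKM + 1) and log2(FPKM + 0.1), other normalizations, filters and limits, a replicate block and each library left out were the alternatives. Named genes were the 8 with the most counts, the 6 and 3 with the smallest p (antisense, sense), the 3 highest and lowest ratios, the 3 largest ratio differences among pairs whose groups did not overlap, those at the limit and the tumour list, with SHMT2 and GAPDH. Other genes (those at the ends of the arrangement, overlap and role groups) were named after their values were seen. Some genes that these rules select are not reported here.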

Additional observations from a re-analysis of the deposited data

How the results depend on the processing

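Deposited counts summed to 533689 to 890574 per library, and even SHMT2, at a log2 fold change of -1.78 (SE 0.48), did not reach an adjusted p under 0.05. At a fold change over 1.5 and an unadjusted p under 0.05, 1 antisense lncRNA was counted, and this number became 2 with no filter on low counts, 0 with DESeq2, 0 with limma on log2(FPKM + 1) and on log2(FPKM + 0.1), 5 with a limit of 60 counts and 0 with 240. Leaving out each library in turn gave 0 to 5 (0 without siNC replicate 3, 4 without siNC replicate 2, 5 without siSHMT2 replicate 2 or 3). Of all tested genes, the same rule took 2.68%, 2.91% with no filter, 2.39% with a minimum of 10 counts per library and 1.11% with DESeq2. It took 2.61% and 2.90% with limma, and 2.86% to 3.73% with a library left out. The number of sense genes was 2, and became 4 with no filter, 1 with DESeq2, 1 with a minimum of 10 counts per library, 4 with a limit of 60 counts and 1 to 4 with a library left out (1 without siNC replicate 2 or siSHMT2 replicate 2, 4 without siSHMT2 replicate 3). Pairs whose ratio did not overlap between groups went from 6 of 135 to 3 of 104 with sense genes of at least 60 counts. They became 10 of 179 with a limit of 60 counts. With a library left out they were 15 to 24 of 135, where fewer libraries are compared. The share of 7.99% given for the 976 pairs was taken with all 6 libraries, so it is no comparison for these numbers. Pairs of the same sign were 52 to 58 of 111 with other normalizations or tests, 75 of 150 with no filter, 38 of 78 with a minimum of 10 counts per library, 72 of 143 and 44 of 86 with limits of 60 and 240 counts, and 51 to 64 of 111 with a library left out, and pairs with more antisense counts at 139 of 152 in FPKM and 132 to 133 with a library left out.

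Same-numbered libraries did not deviate together (r of -0.02, 0.05 and -0.01 for replicates 1 to 3), so the numbers do not pair the libraries. With the replicate block, 1 antisense lncRNA and 2 sense genes passed, beside 2.59% of all tested genes (187 of 7207). In that fit 57 of 111 pairs had the same sign.

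Of 723 single-gene log2 fold changes under the alternatives, 32 in 18 genes changed sign, and 0 had an adjusted p under 0.05 (the lowest was 0.20). CERS6-AS1 was at -0.00089 with no filter, and CERS6 at 0.10 with limma on log2(FPKM + 1), 0.20 on log2(FPKM + 0.1) and 0.068 with the replicate block. With a library left out the ranges that crossed 0 were -0.18 to 0.0025 for ADIRF, -0.059 to 0.017 for PCBP1-AS1, -0.066 to 0.049 for PXN-AS1, -0.025 to 0.033 for CERS6-AS1, -0.37 to 0.22 for CERS6, -0.083 to 0.036 for PRC1-AS1, -0.61 to 0.22 for PRC1, -0.10 to 0.0021 for LIMD1-AS1, -0.34 to 0.066 for LIMD1, -0.25 to 0.15 for DNAJC9, -0.015 to 0.20 for SPTBN1, -0.27 to 0.056 for NAV2, -0.042 to 0.11 for OIP5-AS1, -0.23 to 0.14 for HNRNPK, -0.15 to 0.25 for ITGA2, -0.090 to 0.020 for MCM3AP-AS1, -0.082 to 0.10 for PSMA3 and -0.084 to 0.066 for TMPO. Without 1 library, the unadjusted p of edgeR rose above 0.05 for ZNF710 (siNC replicate 2 or 3, siSHMT2 replicate 2), MAP3K14 (siNC replicate 1, siSHMT2 replicate 1), TICAM2-AS1 (siSHMT2 replicate 2), DNAJC9-AS1 (siNC replicate 1, siSHMT2 replicate 2), SPTBN1-AS2 (siNC replicate 1, siSHMT2 replicate 1 or 2), NAV2-AS1 (siNC replicate 2, siSHMT2 replicate 1) and POT1-AS1 (siNC replicate 3, siSHMT2 replicate 2).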

Other observations

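The 1663 named antisense lncRNAs under the limit held 0.246%, 0.270% and 0.274% of the counts in the siNC libraries and 0.292%, 0.266% and 0.265% in the siSHMT2 libraries, with overlapping groups. Exons of 26 of the 152 antisense lncRNAs also overlapped another gene on the same strand, among them CDKN2B-AS1 with 4 such genes, and their counts cannot be assigned to either gene with certainty. For 6 of the 152 (CHMP1B-AS1, NAV2-AS1, TTBK2-AS1, RNF185-AS1, FOXD1-AS1 and ANO1-AS1) every exon base lay opposite exons of protein-coding genes.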
